A study of Mus musculus with 4 samples.

Results

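Enpep Lamc3 stromal cells are a set of mouse ovarian fibroblast-type cells, picked out here by the transcripts detected in each cell. A cell was counted as stromal when at least 3 of Dcn, Lum, Col1a1, Col1a2, Pdgfra and Tcf21 had a UMI and Pecam1, Ptprc, Fshr and Myh11 had none. UMIs are barcodes on single RNA molecules, so their number is the number of molecules captured. A stromal cell was an Enpep Lamc3 cell when at least 2 of Enpep, Lamc3, Clca3a1 and Tmem100 had a UMI. Cells entered with 1000 UMIs or more and no more than 20% of them mitochondrial, which left 30523. Of these, 7951 were stromal and 2848 were Enpep Lamc3 cells. Because measured values chose these cells, the levels of the rule's genes are a description and carry no test.

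The ovaries came from mice that were prepubertal, at postnatal day 25, in 4 groups with 1 library each. The control group received PBS/Saline. The doxorubicin group received 2 weekly doses of 3 mg/kg doxorubicin, the doxorubicin+AMH group the same doses together with 0.75 mg/kg recombinant human AMH, and the AMH group 0.75 mg/kg AMH without doxorubicin. Each library pooled 1 ovary from each of 5 mice, taken 4 hours after the second doxorubicin dose, and the strain is not given in the sources used here. Groups cannot be tested against each other with a single library in each, so every difference below is one between libraries and has no replicate check. Intervals are 95%, exact Poisson for sums of UMIs and exact Clopper-Pearson for shares of cells, and cover counting error only. Sets of 4 values follow the order control, doxorubicin, doxorubicin+AMH, AMH.

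Ovarian stroma is the connective tissue between follicles. Its fibroblasts make collagens and matrix, and some of its cells become theca cells, the androgen-making layer around growing follicles, under hedgehog ligands from granulosa cells and luteinising hormone. Enpep encodes aminopeptidase A, a membrane enzyme that trims angiotensin II. Lamc3 encodes the gamma-3 chain of laminin, a basement membrane protein, Clca3a1 a member of the chloride channel accessory family, and Tmem100 a membrane protein downstream of BMP signals in vessels. Doxorubicin traps topoisomerase II on DNA and leaves double-strand breaks, after which the transcription factor p53 switches on genes for cell-cycle arrest, repair and death. AMH is a hormone of the TGF-beta family made by granulosa cells of growing follicles, and its receptor signals through the SMAD proteins that BMPs use. The study's title poses the question of protection of the ovary by AMH under doxorubicin.

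Enpep was measured at 271, 261, 294 and 287 CPM (summed UMIs of a gene per 1000000 UMIs of a library's Enpep Lamc3 cells). Lamc3 stood at 105, 108, 85.5 and 77.4 CPM, Clca3a1 at 68.2, 70.5, 68.2 and 44.2 CPM and Tmem100 at 313, 304, 209 and 239.7 CPM. Lamc3 and Tmem100 were lower in both libraries with AMH than in both without, whereas Enpep was not. In leukocytes (at least 2 of Ptprc, Tyrobp, Laptm5, Coro1a and Cd52 detected, not stromal), which should lack these genes, none of the 4 exceeded 8.35 CPM. On the mm10 gene models (GENCODE M21), Enpep lies at chr3:129269175-129332720, minus strand, Lamc3 at chr2:31887291-31946539, plus strand, Clca3a1 at chr3:144729677-144760977, minus strand and Tmem100 at chr11:90030348-90036508, plus strand. Lamc3 and Clca3a1 each overlap 1 gene on the other strand.

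Near the threshold, cells with exactly 2 of the 4 genes made up 46.1%, 41.9%, 48.6% and 53.7% of Enpep Lamc3 cells, or 382, 296, 333 and 337 cells. Just outside it, 757, 531, 639 and 738 stromal cells had exactly 1 gene. The commonest pair in cells with exactly 2 was Enpep with Tmem100, in 40.8% to 49.9% of them. All 4 genes were seen in 26.9%, 28.0%, 21.3% and 17.8% of Enpep Lamc3 cells. Detection went with depth. In the control library the median was 5964 UMIs in stromal cells with none of the 4 genes, 7307 with 1, and 19910.0 with all 4, and the order was the same in the other libraries. Median depth over Enpep Lamc3 cells was 13833, 16238, 13461 and 11560.0 UMIs per cell.

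Enpep Lamc3 cells made up 9.65% of control cells (9.04 to 10.3, 829 cells), 11.02% of doxorubicin cells (10.3 to 11.8, 706 cells), 9.81% of doxorubicin+AMH cells (9.12 to 10.5, 685 cells) and 7.35% of AMH cells (6.80 to 7.92, 628 cells). Of stromal cells they were 36.9%, 41.0%, 36.2% and 30.1%. The doxorubicin library had both the highest share and the deepest cells, and the AMH library the lowest share and the shallowest cells. When cells were first thinned to 5000 UMIs and shallower cells left out, 7444, 5573, 5902 and 6869 cells remained, and the shares of these were 9.58%, 9.29%, 8.37% and 6.49%. The AMH library was again lowest, and the doxorubicin library was not highest. The libraries shared 11 to 24 cell barcodes per pair over all deposited cells and 0 among Enpep Lamc3 cells.

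Markers of other ovarian cells were summed in Enpep Lamc3 cells as a check on the rule. They came to 19.5 to 27.4 CPM for macrophages (6 genes), 2.93 to 4.51 CPM for lymphocytes (6 genes), 15.2 to 22.03 CPM for lymphatic endothelium (5 genes) and 3.97 to 5.21 CPM for oocytes (5 genes). Pericyte markers summed to 59.3 to 92.2 CPM (7 genes) and smooth muscle markers to 333 to 469.8 CPM (6 genes), led by Acta2 and Tagln. Granulosa markers reached 429 to 619 CPM (7 genes), led by Gja1 and Inha. Adventitial markers summed to 149.8 to 209 CPM (7 genes) and glial markers to 14.6 to 35.3 CPM (5 genes). Surface epithelium markers came to 14.9, 17.03, 24.4 and 63.4 CPM (7 genes), with the AMH library highest. Erythroid genes summed to 30.5 to 759.9 CPM (5 genes), most of it from very few cells, as described below. Theca markers (7 genes) summed to 1762 to 2788 CPM, and 6 of the 7 were above 20 CPM on average. Outside the clusters described next as theca-like, the same 7 genes summed to 347 to 559 CPM.

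All 4 libraries were clustered together without the listed marker and pathway genes, which gave 32 clusters, and Enpep Lamc3 cells were spread over several of them. Cluster 4 held 956 cells, or 33.6%, and had Enpep, Col1a1, Mfap4, Grm7, Lama2, Tmem100 and Hhip among its 10 leading genes. Cluster 0, led by the matrix genes Dcn, Mgp and Lum and the chemokine Cxcl14, held 721, and cluster 3, led by Mgp and Pdgfra, held 294. Cluster 16 held 145 cells and was led by Enpep together with the division genes Hist1h1b, Top2a, Pclaf, Prc1 and Mki67. Cluster 11 held 101 and was led by Col1a1, Dpt, C3 and Clec3b, genes of adventitial-type fibroblasts. A further 124 were called doublets and entered no cluster.

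Clusters 12, 7 and 9 carried 5, 3 and 5 of the 7 theca markers among their 10 leading genes and are called theca-like. They held 218, 199 and 42 Enpep Lamc3 cells, together 459 or 16.1%. Per library this was 91, 80, 152 and 136 cells, or 10.98%, 11.3%, 22.2% and 21.7% of Enpep Lamc3 cells. Both libraries with AMH had the higher share. Cluster 12, led by Cyp17a1, Cyp11a1 and Lhcgr, held 6.63%, 7.65%, 8.32% and 8.28% of Enpep Lamc3 cells, whereas cluster 7, led by Prss35, Aldh1a1 and Lhcgr, held 1.69%, 1.84%, 13.3% and 12.9%. Over all cells, cluster 7 numbered 33, 24, 553 and 720 cells and cluster 9 numbered 654, 413, 42 and 34, so these 2 clusters were mostly made of libraries with AMH and without it, respectively. A cluster that is mostly from certain libraries cannot be told apart from those libraries here.

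**Figure D1:**
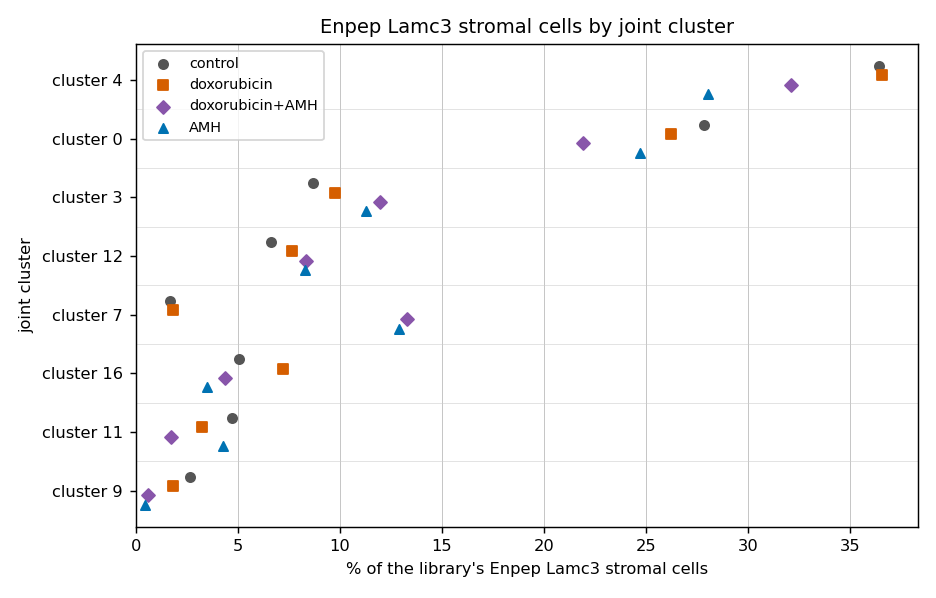
Share of each library's Enpep Lamc3 stromal cells (x axis, %) that fell in each of the 8 joint clusters with most of them (y axis, by cluster number), 1 point per library. Cluster 4 held 36.4%, 36.5%, 32.1% and 28.0%, and cluster 7 held 1.69%, 1.84%, 13.3% and 12.9%.

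Against the 2438 stromal cells in which none of the 4 genes was detected, the gene that stood out most was Hhip, an antagonist that hedgehog-responding cells make to bind hedgehog ligands. Hhip was at 129, 124, 124 and 122 CPM in Enpep Lamc3 cells and 8.26, 8.33, 16.2 and 17.8 CPM in the other cells. The log2 ratio was 2.48 to 3.34 over the 4 libraries (with 5 CPM added to each value, as in all ratios here), and it was above 0 in every library. Among 7052 genes that averaged 20 CPM or more in either population, 178 were higher by at least 0.5 log2 in all 4 libraries (2.52%) and 346 lower (4.91%). A gene under 20 CPM in 1 of the 2 populations passed only through the other, so its difference was favoured by the filter. This holds for 7 of the 12 highest genes, Hhip among them, and for 5 of the 8 lowest. Of the 6236 genes at 20 CPM or more in both populations, 1.62% were higher and 3.13% lower. Cells were divided by expression and differ in depth, so these ratios describe the set and are not a test. In the comparison cells the steroid enzyme gene Cyp17a1 was at 351, 453, 21.3 and 22.8 CPM. Granulosa cells had 296, 234, 19.9 and 6.07 CPM and leukocytes 126, 107, 6.89 and 0.331 CPM. Whether steroid-making cells or free RNA gave this level was not tested.

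A UMI of Hhip was found in 39.6, 40.1, 42.5 and 43.5% of Enpep Lamc3 cells and in 5.76, 4.95, 8.42 and 7.75% of stromal cells with none of the 4 genes. In leukocytes it was found in 1.85%, 0.758% and 1.52% of cells in the first 3 libraries and in 0 of 277 AMH cells, which at 3 counts of the total allows a share of cells with a UMI of up to 1.08%. After thinning to 2000 UMIs per cell the shares were 15.4, 15.1, 14.02 and 15.7% in Enpep Lamc3 cells against 0.784, 1.09, 3.61 and 2.83% in the others. The shares thus differed after thinning, although both sets of cells had been chosen at full depth. Within the set, Hhip was 57.3, 35.5, 64.3 and 67.7 CPM in cells with exactly 2 rule genes and 172, 165, 158 and 163 CPM in cells with 3 or 4. By cluster it was 136, 147, 163 and 199 CPM in cluster 4, 343, 281, 225 and 167 CPM in cluster 12 and 2.30, 2.51, 6.26 and 3.11 CPM in cluster 11. Cells of cluster 11 thus had almost none.

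Of the 9 hedgehog genes that passed the filter, Hhip and Ptch1 were higher in all 4 libraries (2.52% of all genes were) and Gas1 lower (4.91%). Ptch1, the hedgehog receptor and itself a target of the pathway, was at 297, 292, 237 and 283 CPM against 113, 82.5, 91.6 and 97.6 CPM. Gas1, a coreceptor, was at 31.2, 37.5, 30.8 and 37.2 CPM against 103, 129, 90.3 and 86.5 CPM. Gli1, a transcription factor induced by the pathway, was at 39.6, 39.7, 35.8 and 32.1 CPM against 17.3, 9.32, 24.3 and 16.6 CPM, with log2 ratios of 0.47 to 1.64, short of 0.5 in at least 1 library. Gli2 and Gli3, which carry the signal to DNA, had ratios of -0.15 to 0.01 and -0.27 to 0.05. Smo, Boc and Cdon, the signal transducer and 2 coreceptors, did not pass in all 4 libraries either.

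Genes of basement membrane collagen were also among the highest. Col4a1 was at 1139.5, 1222, 887 and 751 CPM in Enpep Lamc3 cells and 289, 274, 235 and 208 CPM in the others (log2 1.83 to 2.14), and its head-to-head neighbour Col4a2 at 579, 587, 446 and 374 against 183, 148, 145 and 125 CPM. Both encode chains of the main type IV collagen trimer. Lamc1, the common laminin gamma chain, was also higher (log2 0.54 to 0.75), and Col4a6 was lower (log2 -1.56 to -0.52). The other 13 of the 17 basement membrane genes that passed the filter were past 0.5 in the same direction in fewer than 4 libraries. Of all genes, 2.52% were higher and 4.91% lower. Col4a6 passed the filter only through the other cells. Of the 15 basement membrane genes at 20 CPM or more in both populations, 3 were higher, beside 1.62%. Of 27 interstitial matrix genes, 9 were lower in all libraries (Fbln1, Fbln2, Thbs1, Lox, Timp2, Col12a1, Mgp, Ogn and Tnxb), beside 4.91% of all genes, and Fbn1 and Vcan were higher, beside 2.52%. Fbln2, Lox and Tnxb passed the filter only through the other cells. Of the 24 genes at 20 CPM or more in both populations, 6 were lower, beside 3.13%.

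Secreted factors were lower in Enpep Lamc3 cells for 10 of 19 genes, namely Igf1, Fgf2, Angpt1, Cxcl12, Rspo1, Rspo3, Csf1, Igfbp4, Igfbp6 and Sfrp1, beside 4.91% of all genes, while Igfbp7 was higher, beside 2.52%. Fgf2, Rspo1, Rspo3 and Csf1 passed the filter only through the other cells. Of the 13 factors at 20 CPM or more in both populations, 6 were lower, beside 3.13%. Cxcl12, a chemokine that holds blood cells in tissue, was at 69.5, 65.8, 51.2 and 52.7 against 170.2, 176, 165 and 139 CPM. Igf1 was at 74.2, 70.2, 65.98 and 74.04 against 142, 136, 149.9 and 134 CPM. Of 19 transcription factors of gonadal stroma, 5 were lower (Wt1, Gata6, Emx2, Meis1 and Meis2, beside the same 4.91%) and none higher. Without Emx2, which passed only through the other cells, 4 of 18 were lower. Wt1, a regulator of gonad development, was at 51.5, 53.3, 34.96 and 37.4 against 214, 214, 141 and 151 CPM, and its antisense transcript Wt1os followed it (log2 -1.86 to -1.62). The genes ranked lowest were, beside these, the synaptic adhesion gene Nlgn1 at 32.3, 32.1, 25.4 and 30.4 against 188, 209, 188 and 136 CPM, complement C3 at 23.6, 65.8, 63.1 and 37.9 against 230.5, 301, 275 and 202 CPM, Igfbp3 (log2 -2.56 to -2.23), Nkain3 (-2.19 to -1.82), Grin2b (-1.99 to -1.70) and Rspo3 (-1.71 to -1.53). Igfbp3 and Nkain3 are among the genes that define neighbouring stromal sets.

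Among the highest genes, Ryr2, a calcium release channel, was at 215, 200.3, 179.7 and 139 against 34.01, 33.5, 26.5 and 29.04 CPM. Cdh5, known as an endothelial cadherin, was at 34.4, 43.7, 37.8 and 36.97 against 6.77, 4.16, 7.97 and 8.27 CPM, although Pecam1 had to be absent and the 6 blood endothelial markers, Cdh5 included, summed to 90.5 to 104 CPM. Leukocytes had Cdh5 at 52.7, 31.3, 8.80 and 40.4 CPM, above Enpep Lamc3 cells in the control and AMH libraries, and the part of free RNA was not tested. The others in order of their lowest ratio were Smim41 (log2 1.84 to 2.48), Pclaf (1.52 to 3.06), Ripor2 (1.47 to 1.81), Wfdc1 (1.41 to 2.08), Col25a1 (1.40 to 2.03), Top2a (1.33 to 2.86) and Ptch1. Top2a, the doxorubicin target made by dividing cells, was at 144, 195, 128 and 111 against 15.5, 22.8, 34.7 and 41.1 CPM. Of 33 genes of the G2 and M phases that passed the filter, 21 were higher in all 4 libraries, beside 2.52% of all genes, and none was lower. Of these 21, 18 were under 20 CPM in the other cells and passed only through the Enpep Lamc3 cells, so the count is no support for a difference. Of the 11 genes at 20 CPM or more in both populations, 3 were higher (Hmgb2, Cks2 and Cks1b), beside 1.62%.

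**Figure D2:**
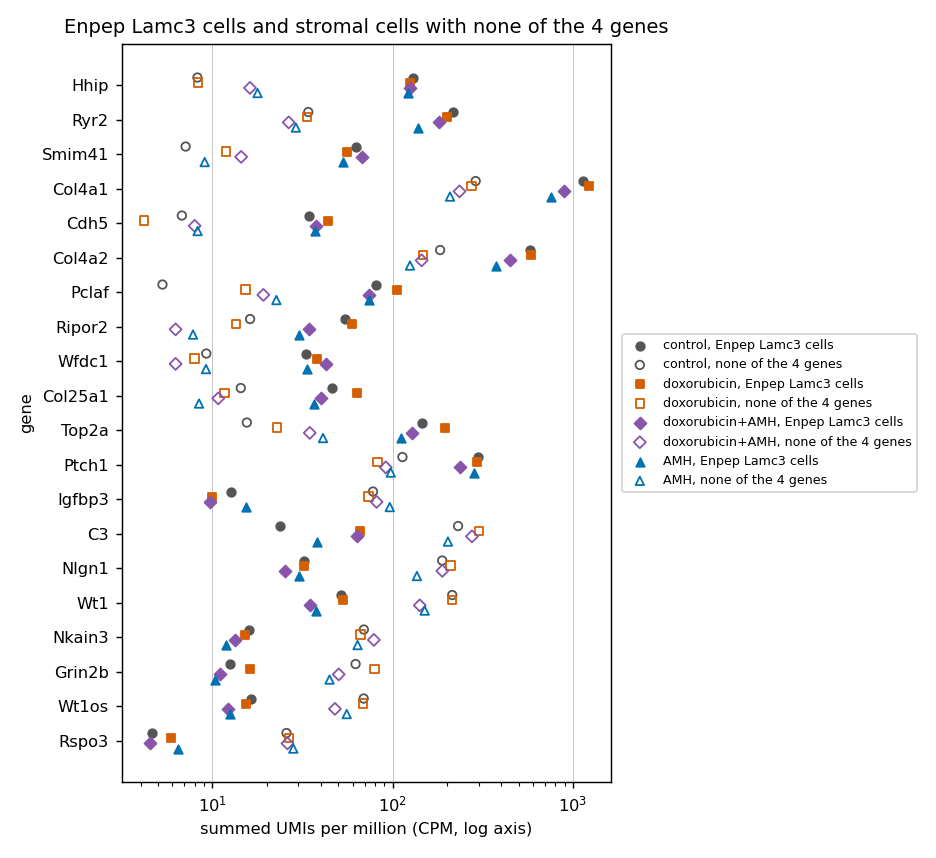
Level (x axis, CPM on a log scale) of the 20 genes furthest from stromal cells with none of the 4 rule genes (y axis), with filled symbols for Enpep Lamc3 cells and open symbols for the other cells, 1 per library. The genes were chosen by these same ratios, so the distance between filled and open symbols is a description and no support. Hhip was at 122 to 129 CPM against 8.26 to 17.8 CPM.

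In the doxorubicin contrasts of Enpep Lamc3 cells, Cdkn1a, which encodes the cell-cycle inhibitor p21, was at 24.2, 194, 67.9 and 35.1 CPM. Its level in the doxorubicin library stood apart from all others, and the doxorubicin+AMH library was second. The log2 ratio was 2.77 for doxorubicin over control and 0.86 for doxorubicin+AMH over AMH, 2 contrasts that share no library. Of 29 p53 target genes, 14 averaged 20 CPM or more. In doxorubicin over control 10 of the 14 were higher by at least 0.5 log2 (0.62% of all 6617 genes were) and none was lower (0.695%), with a median of 0.77 against -0.01 over all genes. In doxorubicin+AMH over AMH 2 were higher, Cdkn1a and Eda2r (0.62% of all genes), none was lower (0.514%), and the median was 0.30 against 0.02. Ccng1, Eda2r and Ckap2 averaged 19.1, 14.9 and 19.6 CPM over the 3 libraries other than doxorubicin, so they passed the filter only through the library in which they were highest. Among the other 11 targets, 7 were higher in doxorubicin over control (median 0.57) and 1, Cdkn1a, in doxorubicin+AMH over AMH (median 0.24). With cells weighted equally both were under 0.5 in this contrast, Cdkn1a at 0.46 and Eda2r at 0.496.

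Among arrest and feedback genes, Mdm2, the ubiquitin ligase that destroys p53, was at 35.7, 66.8, 42.1 and 30.6 CPM. Ccng1, a cyclin that acts with Mdm2, was at 13.4, 57.6, 26.6 and 17.4 CPM, and Ckap2, a spindle protein, at 18.4, 55.9, 24.4 and 15.98 CPM. For all 3 the doxorubicin library was highest and doxorubicin+AMH second. Among death genes, Eda2r, a receptor of the TNF family, was at 10.1, 59.2, 23.1 and 11.5 CPM. Bax, which opens the outer mitochondrial membrane, was at 89.6, 151, 117 and 83.02 CPM, and Ei24 at 53.3, 81.4, 56.7 and 50.97 CPM. Phlda3, an inhibitor of AKT, was at 33.7, 68.4, 43.9 and 35.4 CPM, and Trp53inp1, a stress protein induced by p53, at 35.6, 67.97, 46.6 and 42.6 CPM. The ribosomal protein relative Rps27l was at 387, 551, 457 and 388 CPM.

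Btg2 (log2 0.19 and 0.24) and Plk2 (0.12 and 0.33) were above 0 in both contrasts without reaching 0.5. Sesn1 (-0.17 and -0.21) and Rrm2b (-0.18 and -0.18) were below 0 in both. Hence 12 of 14 were above 0 in each contrast, where the medians over all genes were -0.01 and 0.02. Of the 15 targets below the filter on low levels, 11 were highest in the doxorubicin library and 4 were not. The share of all genes below the filter that were highest in that library was not counted, so this count says little. The targets with the highest levels in that library were Aen and Zmat3, with Zmat3 at 10.2, 28.9, 15.4 and 11.4 CPM and Aen at 12.8, 30.2, 17.96 and 13.3 CPM, an RNA-binding protein and a nuclease. Of 12 genes that sense and repair breaks and passed, none was past 0.5 in either contrast, which at shares of 0.514% to 0.695% of all genes says little, and the medians were 0.02 and 0.02. Trp53 itself was at 77.8, 72.7, 68.2 and 71.3 CPM.

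**Figure D3:**
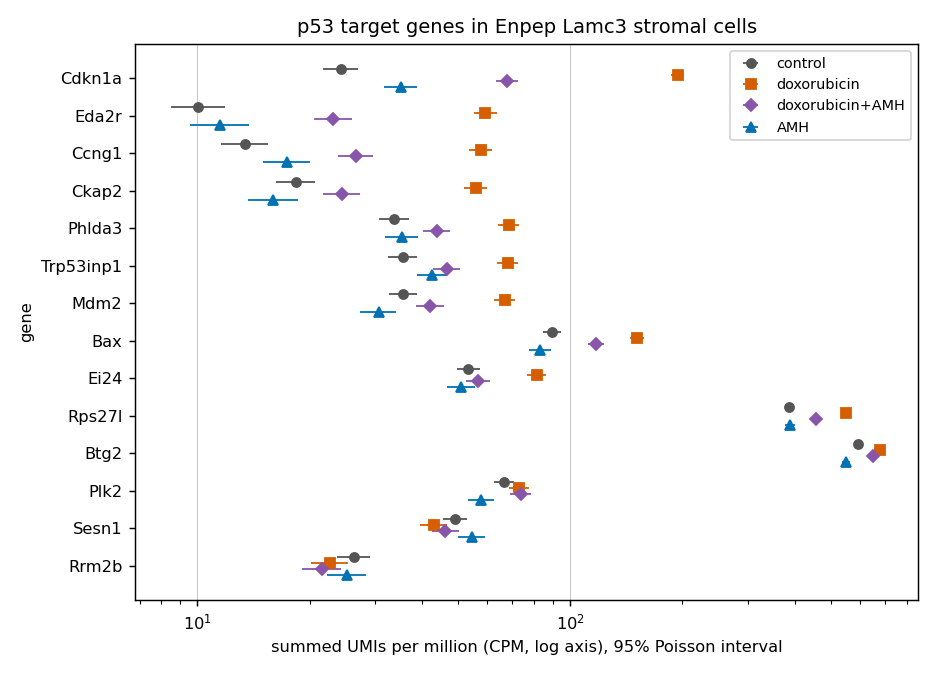
Level (x axis, CPM on a log scale, with exact Poisson 95% intervals) in Enpep Lamc3 cells of the 14 p53 target genes that passed the filter (y axis), 1 point per library. Cdkn1a was at 194 CPM in the doxorubicin library, 67.9 in doxorubicin+AMH, 35.1 in AMH and 24.2 in control.

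Promoters of the 4 best-known of these genes are printed because their levels were high together in the doxorubicin library and p53 acts by binding DNA near such genes. They come from RefSeq on GRCm38.p6 and run from 250 bases before to 50 bases after the start site, 5′ to 3′ on the gene's strand. Capitals mark each match to the p53 decamer, the 10-base element of which p53 sites hold a pair. It reads the same on both strands, so 1 search covers both, and no other motif was searched.
Cdkn1a, chr17:29090729-29091028, plus strand: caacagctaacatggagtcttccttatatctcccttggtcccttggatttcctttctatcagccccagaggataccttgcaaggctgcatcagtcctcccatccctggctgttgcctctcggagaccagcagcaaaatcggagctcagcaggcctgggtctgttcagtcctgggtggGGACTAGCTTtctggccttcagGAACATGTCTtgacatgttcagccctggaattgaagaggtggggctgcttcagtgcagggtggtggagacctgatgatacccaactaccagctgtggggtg
Mdm2, chr10:117710709-117711008, minus strand: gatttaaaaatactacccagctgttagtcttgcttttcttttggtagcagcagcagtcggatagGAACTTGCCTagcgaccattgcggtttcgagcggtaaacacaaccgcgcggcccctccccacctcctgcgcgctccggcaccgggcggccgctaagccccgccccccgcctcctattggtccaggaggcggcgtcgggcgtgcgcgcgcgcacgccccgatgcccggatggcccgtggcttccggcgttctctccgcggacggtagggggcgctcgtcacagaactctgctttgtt
Ccng1, chr11:40755237-40755536, minus strand: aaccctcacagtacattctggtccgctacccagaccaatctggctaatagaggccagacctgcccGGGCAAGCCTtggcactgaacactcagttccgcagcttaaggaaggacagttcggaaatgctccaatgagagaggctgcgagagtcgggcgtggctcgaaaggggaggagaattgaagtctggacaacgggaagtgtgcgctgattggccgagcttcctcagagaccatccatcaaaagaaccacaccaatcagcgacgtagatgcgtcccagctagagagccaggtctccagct
Bax, chr7:45466849-45467148, minus strand: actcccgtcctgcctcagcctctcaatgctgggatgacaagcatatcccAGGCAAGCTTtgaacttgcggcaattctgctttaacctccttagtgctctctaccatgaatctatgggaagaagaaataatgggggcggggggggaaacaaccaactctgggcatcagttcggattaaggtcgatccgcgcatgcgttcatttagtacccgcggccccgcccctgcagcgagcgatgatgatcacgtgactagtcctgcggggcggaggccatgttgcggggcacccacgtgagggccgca
Cdkn1a had 2 matches, starting 73 and 51 bases before the start site, and Mdm2, Ccng1 and Bax had 1 each, starting 186, 185 and 201 bases before it. A match is a description of the letters and not a measured site. Of the 14 genes, 12 were in the table with 15 windows, and 8 windows of 8 genes held a match (Bax, Ccng1, Cdkn1a, Ckap2, Ei24, Mdm2, Rps27l and Sesn1), whereas 8.36% of all 32851 windows and 9.55% of all genes in the table did. Sesn1, which holds a match, was below 0 in both contrasts.

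Levels of p53 targets were uneven among Enpep Lamc3 cells. In cluster 4 the list medians were 0.83 and 0.49, with Cdkn1a at 18.8, 151, 95.3 and 29.3 CPM. In cluster 0, the next largest, the medians were 0.10 and 0.18, with Cdkn1a at 25.1, 37.9, 50.04 and 49.9 CPM. The dividing cells of cluster 16 had medians of 0.88 and 0.23 and Cdkn1a at 20.2, 355, 97.1 and 29.6 CPM. Theca-like cluster 12 had medians of 0.78 and 0.55 and Cdkn1a at 4.91, 79.1, 83.4 and 18.6 CPM, with both doxorubicin libraries alike. Cluster 11, with 23 cells in the doxorubicin library, reached medians of 2.37 and 0.01, with Cdkn1a at 119.6, 1864, 163 and 124 CPM. Cdkn1a was thus highest, in the doxorubicin library, in the cells that share genes with adventitial fibroblasts.

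The set overlapped other stromal sets. At least 2 of Nkain3, Wnt4 and Hoxd9 were detected in 681 Enpep Lamc3 cells (189, 170, 187 and 135), and both Lrat and Tmeff2 in 193 (64, 69, 27 and 33). In all, 118 Enpep Lamc3 cells (45, 30, 15 and 28) also had at least 2 of Clec3b, Dpt and Igfbp3. In the doxorubicin library these 30 cells held 727 of the 2644 Cdkn1a UMIs of the set, or 27.5%. Without such cells Cdkn1a was at 21.03, 147, 63.9 and 32.04 CPM, and the medians were 0.66 and 0.31. Without the theca-like clusters the medians were 0.77 and 0.32. Leaving out either group of cells left both medians above 0.

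Stromal cells outside the Enpep Lamc3 set had medians of 0.87 and 0.08 where none of the 4 rule genes was detected, with Cdkn1a at 49.2, 346, 68.3 and 54.96 CPM. Of the other such cells, those with Lrat and Tmeff2 gave 0.50 and -0.12, those with at least 2 of Nkain3, Wnt4 and Hoxd9 gave 0.83 and -0.14, and those with at least 2 of Clec3b, Dpt and Igfbp3 gave 2.34 and 0.23. No test of these differences is possible. A Cdkn1a UMI was found in 19.1, 40.2, 31.7 and 26.1% of Enpep Lamc3 cells, and after thinning to 2000 UMIs in 5.44, 17.1, 9.63 and 6.23%. The thinned share in granulosa cells, at a median depth of 16334 to 22952 UMIs before thinning, was 2.57, 7.197, 5.60 and 3.74%. Leukocytes, at a median of 7020.0 to 8128 UMIs, gave 26.3, 48.6, 30.00 and 22.8% and make Cdkn1a themselves at 181, 522, 244 and 144 CPM, so they give no background for this gene. In both contrasts the share was higher with doxorubicin.

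**Figure D4:**
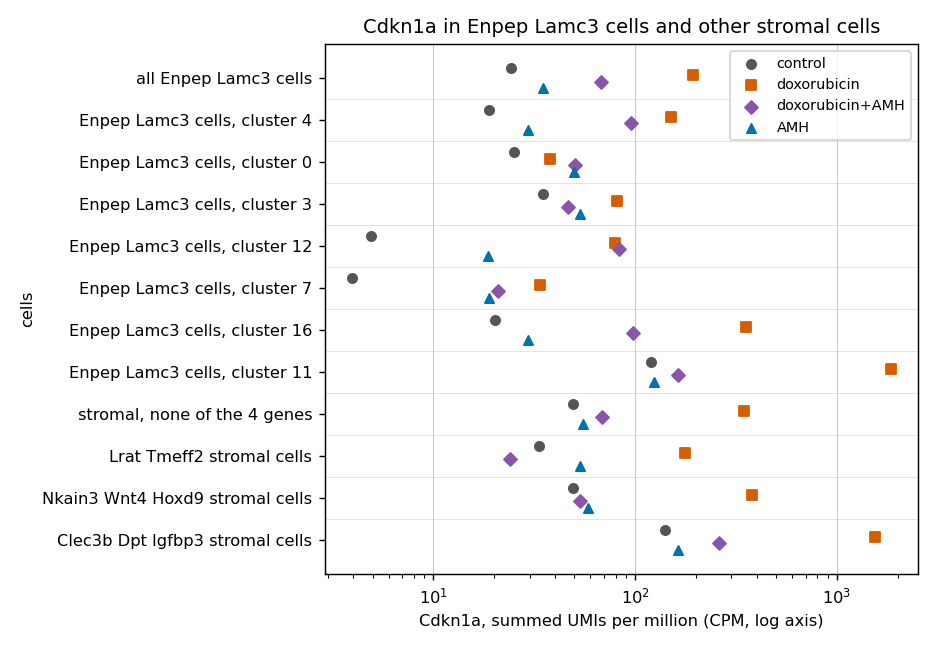
Cdkn1a level (x axis, CPM on a log scale) in all Enpep Lamc3 cells, in their 7 largest joint clusters and in 4 sets of stromal cells outside them (y axis), 1 point per library. The doxorubicin library was highest in every population except clusters 0 and 12, where doxorubicin+AMH was at 50.04 and 83.4 CPM against 37.9 and 79.1 CPM.

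Set against doxorubicin alone, the doxorubicin+AMH library had lower p53 targets in Enpep Lamc3 cells. Of the 14 genes, 6 were lower by at least 0.5 log2 (1.66% of all genes were) and none was higher (0.922%), with a median of -0.49 against -0.05 over all genes. Without Ccng1, Eda2r and Ckap2, which passed the filter only through the doxorubicin library, 3 of 11 were lower and the median was -0.35. Cdkn1a differed most (log2 -1.45), followed by Eda2r (-1.19), Ckap2 (-1.05) and Ccng1 (-0.99). With cluster 4 in place of the rule the Cdkn1a ratio was -0.85, the nearest to 0 of 12 alternatives. In clusters 0 and 12 its level was not lower in doxorubicin+AMH than in doxorubicin, as given above. In AMH over control none of the 14 was higher (0.997% of all genes) or lower (2.12%) by that much, and the median was -0.03. These 2 contrasts share no library with each other, but each shares libraries with the doxorubicin contrasts above.

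Outside the p53 list, Ano3 ranked high in both doxorubicin contrasts. It averaged 7.76 CPM over the 3 libraries other than doxorubicin and passed the filter only through that library. Ano3, a membrane protein of the anoctamin family, was at 2.45, 58.4, 19.3 and 1.51 CPM (log2 3.09 and 1.90). It had a UMI in 22, 123, 62 and 15 Enpep Lamc3 cells. In stromal cells with none of the 4 rule genes it was at 0.660, 22.8, 1.94 and 0.781 CPM and in leukocytes at 0, 5.56, 3.83 and 0 CPM. Its level was above 5 CPM in both doxorubicin libraries and below it in the other two, and Ano3 overlaps 1 gene on the other strand.

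Haemoglobin genes Hbb-bt (at 4.96, 96.3, 30.7 and 1.80 CPM), Hba-a1 and Hba-a2 also ranked among the 6 highest, but nearly all their UMIs came from very few cells. In the doxorubicin library 1 cell held 10113 of the 10353 erythroid UMIs of the set. The 5 top cells held 95.8%, 97.8%, 95.2% and 68.7% of them in the 4 libraries. Hba-a1, Hba-a2 and Hbb-bs (at 251, 385, 181 and 17.1 CPM) were also among the 6 lowest genes of the AMH contrasts, and Hbb-bs had the largest difference between both doxorubicin ratios among the 6617 genes.

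Among the genes lowest in both doxorubicin contrasts, Lsamp, a neuronal cell adhesion protein, was at 103, 54.8, 49.8 and 77.2 CPM (log2 -0.85 and -0.58). Both doxorubicin libraries were below both others. With cluster 4 in place of the rule, its 2 ratios no longer had the same direction, and neither did those of Fam13a and Mctp1. The same held for Fam13a and Mctp1 with cells thinned to 5000 UMIs. Fam13a was at 28.5, 17.6, 20.5 and 37.1 CPM, with 41.4, 65.4, 93.02 and 41.7 CPM in leukocytes and 239.9, 252, 283 and 243 CPM in granulosa cells. The splicing factor Rbfox1 was at 39.7, 27.1, 39.5 and 58.1 CPM, with 19.9, 31.3, 44.8 and 22.8 and 189, 151, 148 and 106 CPM in the same cells. Mctp1, a calcium-binding membrane protein, was at 19.4, 11.4, 24.8 and 42.8 CPM. Mctp1 was at 987, 917, 1152 and 993 CPM in granulosa cells and 367, 421, 526 and 369.9 CPM in leukocytes, far above Enpep Lamc3 cells, and the part of free RNA in the levels of all 3 genes was not tested. Rbfox1 overlaps 1 gene on its own strand. Ovgp1, an oviduct glycoprotein, was at 11.5, 3.60, 4.35 and 83.4 CPM, with 86.8% of its UMIs in the AMH library in 5 cells and 565, 1.39, 63.9 and 24.8 CPM in leukocytes. Over both contrasts, 12 genes were past 0.5 upward in each and 5 downward, of 6506.

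Most G2 and M phase genes had doxorubicin ratios above 0 in Enpep Lamc3 cells, and few were past 0.5. In doxorubicin over control 32 of 33 were above 0 and 7 past 0.5 (0.62% of all genes were), with a median of 0.30 against -0.01 over all genes. In doxorubicin+AMH over AMH 28 were above 0 and 5 past 0.5 (0.62%), with a median of 0.19 against 0.02 over all genes. Ccnb2, the mitotic cyclin B2, was at 33.5, 50.3, 46.1 and 28.4 CPM, and Cenpa, the centromere histone, at 48.4, 72.8, 62.5 and 38.96 CPM. Mki67 was at 77.3, 94.2, 60.8 and 47.4 CPM. In AMH over control 3 of 33 were lower past 0.5, beside 2.12% of all genes (median -0.21), and in doxorubicin+AMH over doxorubicin 5, beside 1.66% (median -0.30). In the theca-like cells the medians of these 2 contrasts were above 0, at 0.70 (18 of 33 higher past 0.5, beside 8.02% of all genes there) and 0.24 (4 higher, beside 5.47%), with 0 lower in each.

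These medians differed when dividing cells were left out. Outside cluster 16 the G2 and M medians of the doxorubicin contrasts were 0.07 (27 of 33 above 0) and 0.34 (30 of 33), against -0.01 and 0.02 over all genes. Cluster 16 held 5.07%, 7.22%, 4.38% and 3.50% of Enpep Lamc3 cells. Cells were counted as cycling when the S genes alone, or the G2 and M genes alone, had 5 UMIs or more. After thinning to 2000 UMIs, cycling cells were 13.5% (11.3 to 16.1), 16.4% (13.7 to 19.3), 15.6% (13.0 to 18.6) and 10.2% (7.96 to 12.9), leaving out 2, 4, 0 and 2 shallower cells. Unthinned they were 91.8%, 95.04%, 95.8% and 92.99%. The intervals cover cells of single libraries. With 3 UMIs or more in place of 5, the shares were 38.5% (35.1 to 41.9), 41.5% (37.8 to 45.2), 43.9% (40.2 to 47.8) and 39.1% (35.3 to 43.1), and all 4 intervals overlapped. At 5 UMIs or more, stromal cells with none of the 4 genes gave 8.46%, 9.63%, 9.75% and 8.91%, and leukocytes 18.1%, 18.7%, 28.2% and 21.5%. At 3 UMIs or more, these stromal cells gave 37.5%, 41.8%, 44.4% and 43.99%, and leukocytes 41.3%, 49.5%, 57.1% and 48.5%. The other stromal cells were thus not clearly below Enpep Lamc3 cells at 3 UMIs. S phase genes had medians of 0.06 and -0.01, with 0 of 15 past 0.5, beside shares of 0.514% to 0.695% of all genes.

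In the AMH contrasts of Enpep Lamc3 cells, several genes had larger ratios in the theca-like cells than in the others. The theca-like cells are few, and of all 6617 genes there 8.02% were higher and 6.17% lower by at least 0.5 in AMH over control, and 5.47% and 5.09% in doxorubicin+AMH over doxorubicin. Outside them the shares were 0.725% and 2.1%, and 0.65% and 1.5%. Kitl, which encodes the ligand of the KIT receptor found on oocytes and theca cells, was at 126, 137, 225 and 255 CPM (log2 0.99 for AMH over control and 0.69 for doxorubicin+AMH over doxorubicin, which share no library). In the theca-like cells it was at 218, 316, 436 and 532 CPM and in all other Enpep Lamc3 cells at 99.2, 95.8, 111 and 113 CPM. In theca-like cells both libraries with AMH were above both without, and elsewhere the level was near that in leukocytes, 137, 108, 106 and 128 CPM. Most of these cells were in cluster 7 in the libraries with AMH and in clusters 12 and 9 in those without, so the values within them compare different clusters.

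BMP and SMAD target genes also had larger ratios in theca-like cells. Of 8, 5 passed the filter, with medians of 0.16 and 0.29 in AMH over control and doxorubicin+AMH over doxorubicin and 1 gene higher past 0.5 in each, Id2 (0.997% and 0.922% of all genes). In theca-like cells the medians were 1.51, with 5 of 5 higher past 0.5 (8.02% of all genes there), and 1.31, with 4 of 5 (5.47%). Elsewhere they were -0.04 and 0.20, with 0 past 0.5. Id3, an inhibitor of helix-loop-helix factors, was at 115, 154, 439 and 561 CPM in theca-like cells and 708, 560.3, 603 and 529.7 CPM elsewhere. Id2 was at 45.7, 42.4, 164 and 215 and 106, 88.8, 102 and 121 CPM, and Smad7, an inhibitory SMAD, at 18.7, 15.2, 45.02 and 60.2 and 46.4, 42.7, 49.9 and 45.02 CPM. For all 3, the theca-like cells of both libraries with AMH were above those of both libraries without it. The same 2 libraries were also the highest for all 3 genes in leukocytes and granulosa cells. Leukocytes had Id2 at 215, 181, 255 and 306 CPM, Id3 at 125, 168, 186 and 191 CPM and Smad7 at 55.4, 55.6, 81.5 and 69.5 CPM. Id1 and Bambi, which also passed, had no such order in leukocytes, at 104.5, 63.98, 104.5 and 94.3 CPM and at 21.2, 16.7, 15.7 and 19.2 CPM. In granulosa cells they had it, at 191, 177, 214 and 209.7 CPM and at 17.8, 17.95, 23.7 and 26.9 CPM. Granulosa cells had Id2 at 184, 179, 270.0 and 317 CPM, Id3 at 369.6, 395, 461 and 427 CPM and Smad7 at 76.4, 82.2, 139.7 and 127 CPM.

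The AMH receptor gene Amhr2 was at 19.7, 16.4, 26.5 and 31.9 CPM over all Enpep Lamc3 cells, 36.2, 42.4, 47.1 and 61.6 CPM in theca-like cells and 14.8, 10.4, 15.4 and 16.5 CPM elsewhere. Granulosa cells, its best-known site, had 106, 122, 93.3 and 98.3 CPM and leukocytes 24.00, 25.04, 49.4 and 25.8 CPM. Outside the theca-like clusters it was therefore below the level seen in leukocytes in all 4 libraries. Of 9 receptors of the TGF-beta family that passed, Amhr2 was the 1 higher past 0.5 in both AMH contrasts (0.997% and 0.922% of all genes). Tgfbr2, at 99.99, 94.7, 74.8 and 62.9 CPM, was lower in AMH over control (log2 -0.63, beside 2.12% of all genes).

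Of 9 steroid synthesis genes, 4 were lower by at least 0.5 in AMH over control (median -0.42, beside 2.12% of all genes). In doxorubicin+AMH over doxorubicin 2 were lower (1.66%) and 1 higher (0.922%), with a median of 0.02. Cyp17a1, which makes androgens, was at 367, 337, 136 and 81.98 CPM (log2 -2.10 and -1.28), with 1459.5, 1640.4, 360.0 and 215 CPM in theca-like cells. In all other Enpep Lamc3 cells it was at 45.3, 33.7, 14.8 and 13.05 CPM, while leukocytes had 126, 107, 6.89 and 0.331 CPM. Cells outside the theca-like clusters were thus below the leukocyte level in the 2 libraries without AMH and above it in the 2 with AMH, and the part of free RNA was not tested. Cyp11a1, the first enzyme of steroid synthesis, was at 2169.5, 1679, 713 and 538 CPM in theca-like cells. There all 9 were lower by at least 0.5 in AMH over control (median -0.998, beside 6.17% of all genes there), and 5 of 9 in doxorubicin+AMH over doxorubicin (median -0.62, beside 5.09%). Outside the theca-like clusters 3 of 9 were lower in AMH over control (median -0.35, beside 2.1%) and 5 of 9 in doxorubicin+AMH over doxorubicin (median -0.51, beside 1.5%). Cyp11a1 and Star, lower in both, were at 103, 76.2, 24.1 and 44.3 CPM and at 26.5, 24.4, 15.4 and 14.8 CPM there. Leukocytes had Cyp11a1 at 252, 145, 21.4 and 24.2 CPM and Star at 39.99, 17.4, 8.42 and 17.5 CPM. The part of free RNA in these counts was not tested.

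Among the other genes highest in both AMH contrasts, Abhd2, Serpinb6b and Cpe had larger ratios in theca-like cells than elsewhere. Gm35533, a long noncoding RNA, was at 36.8, 27.7, 104 and 136 CPM, with 25.5, 60.7, 208 and 319.6 CPM in theca-like cells and 40.1, 19.99, 48.1 and 40.4 CPM elsewhere (log2 0.01 and 1.09 there). It was also at 21.5, 31.99, 101 and 72.1 CPM in leukocytes, higher in both libraries with AMH there too. Abhd2, a lipid hydrolase, was at 77.1, 70.6, 149.9 and 144 CPM, with 180.4, 151, 336 and 322 and 46.6, 52.02, 49.4 and 51.8 CPM. Serpinb6b, a protease inhibitor, was at 90.8, 80.5, 196 and 219 and 48.1, 41.98, 43.9 and 51.6 CPM in the same order. Cpe, a carboxypeptidase that processes peptide hormones, was at 276, 243, 429 and 540.5 CPM, with 539, 506, 803 and 1074 and 199, 182, 228 and 265 CPM. Bex4 was at 40.9, 39.6, 86.7 and 107 CPM but 139.8, 321, 467 and 335 CPM in leukocytes and 830.0, 984, 1348 and 1120.1 CPM in granulosa cells, and the part of free RNA was not tested.

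**Figure D5:**
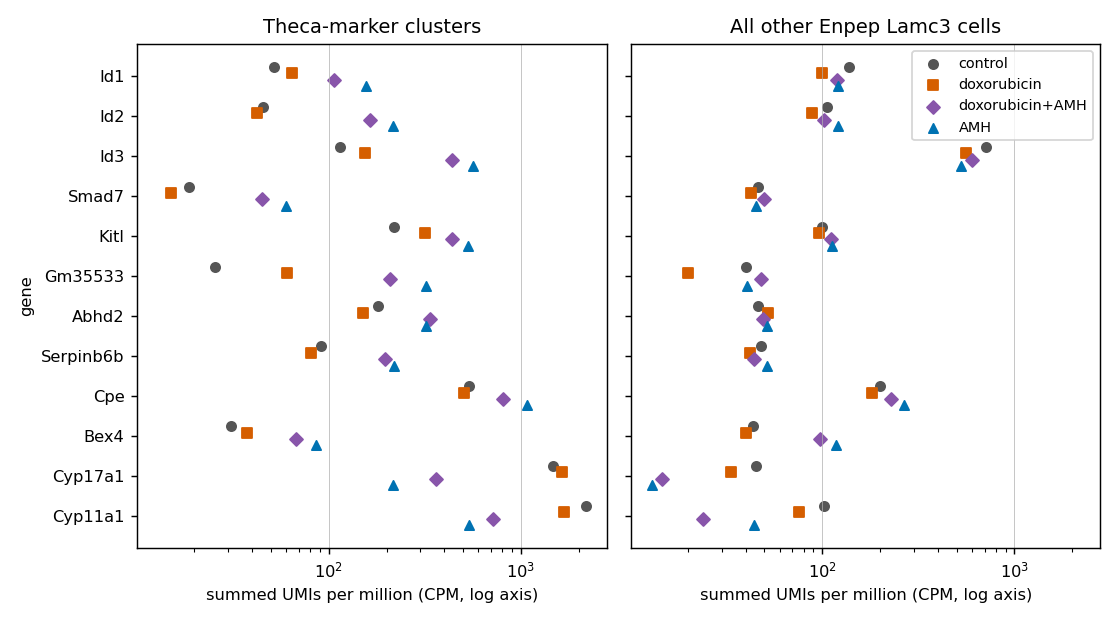
Level (x axes, CPM on a log scale) of 12 genes (y axis) in Enpep Lamc3 cells of theca-like clusters (left) and in all other Enpep Lamc3 cells (right), 1 point per library. In theca-like cells the 2 libraries with AMH had Kitl at 436 and 532 CPM against 218 and 316 CPM and Cyp17a1 at 360.0 and 215 CPM against 1459.5 and 1640.4 CPM.

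Genes low in both AMH contrasts included Itga8, an integrin chain of fibroblasts, at 34.8, 31.6, 14.5 and 16.1 CPM (log2 -0.92 and -0.91). It was at 43.4, 37.8, 20.3 and 23.7 CPM outside the theca-like clusters and at most 12.2 CPM in leukocytes. Ifi27l2a, an interferon-induced gene, was at 169.7, 261, 107 and 85.8 CPM and at 729, 798, 593 and 628 CPM in leukocytes. Over all genes 22 were past 0.5 upward in both AMH contrasts and 48 downward, of 6506.

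Of 15 basement membrane genes, 4 were lower by at least 0.5 in AMH over control (Col15a1, Col4a1, Col4a2 and Lamb1, median -0.36, beside 2.12% of all genes) and 1 in doxorubicin+AMH over doxorubicin (Col15a1, median -0.27, beside 1.66%). Col15a1, a collagen that bridges basement membrane and matrix, was at 162, 142, 85.8 and 97.3 CPM, and both libraries with AMH were below both without. Col4a1, named above, was also lower in both libraries with AMH than in both without. Outside the theca-like clusters the medians were -0.29 and -0.17. Of 24 interstitial matrix genes 3 were lower in AMH over control (median -0.27, beside 2.12%) and 1 in the other contrast (median -0.32, beside 1.66%), with Col5a1 at 149, 152, 102 and 99.9 CPM, and outside the theca-like clusters the medians were -0.16 and -0.16, against -0.07 and -0.04 over all genes. In theca-like cells the interstitial medians were above 0, at 0.24 (7 higher and 2 lower past 0.5, beside 8.02% and 6.17% of all genes there) and 0.08 (7 higher and 0 lower, beside 5.47% and 5.09%).

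Among secreted factors Igfbp5, a binding protein of insulin-like growth factors, was at 52.5, 49.9, 73.1 and 111 CPM. Inhba, the activin subunit, was at 14.6, 23.05, 34.6 and 38.96 CPM in Enpep Lamc3 cells but 48.3, 364, 293 and 139 CPM in leukocytes, and the part of free RNA was not tested. Of 9 hedgehog genes, none was past 0.5 in any of the 4 contrasts, in which 0.514% to 2.12% of all genes were in either direction. Hhip had log2 ratios of -0.06, 0.02, -0.08 and 0.00. In theca-like cells alone Hhip was at 203, 214, 127 and 106 CPM. In the other Enpep Lamc3 cells it was at 108, 103, 123 and 131 CPM. Both libraries with AMH were below both without in theca-like cells and above both in the others.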

How the data were processed

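Droplet 3′ libraries were made from dissociated ovaries, 1 per group. The authors deposited a matrix of raw UMI counts for each library, and per the file headers Cell Ranger 7.0.0 made it. The submitters' processing notes name mm10, R 4.2.0 and Seurat 4.1.0. Whether intronic reads were counted is not given in the sources used here.

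Enpep Lamc3 cells were found by the stated rule after the cell filter of 1000 UMIs and 20% mitochondrial UMIs. Their UMIs were summed per library (14311813, 13623804, 12412972 and 10575657) and expressed as CPM. Log2 ratios used a pseudocount of 5 CPM, among the 6617 of 32285 genes averaging 20 CPM or more, and a fold of 0.5. Thinning was to 2000 UMIs per cell. All 4 libraries were clustered without batch correction (30 principal components, 2000 variable genes, 20 neighbours, Leiden resolution 1, scanpy 1.11.5, leidenalg 0.10.2, scikit-learn 1.9.0) after Scrublet doublets were left out at 0.8% per 1000 cells. Called doublets (37, 32, 31 and 24) stayed among the Enpep Lamc3 cells otherwise. The calculations were tested on simulated data.

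The members and gene lists were chosen with earlier results of these data known. Beside the listed genes, genes were named by rank: the 12 highest and 8 lowest by the ratio nearest 0 over 4 libraries against stromal cells with none of the 4 genes, the 6 highest and 6 lowest by the ratio nearer 0 of each pair of contrasts without a shared library, and the 3 highest and 3 lowest by the difference of both doxorubicin ratios. Some genes that these ranks or lists hold are not reported here. Gene positions are from GENCODE M21 and promoters from RefSeq. Alternatives changed the mitochondrial limit, UMI minimum, depth, number of rule genes, doublets, membership, scaling, pseudocount, filter and cell weights.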

Additional observations from a re-analysis of the deposited data

Results flagged for a closer look

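Some results moved in opposite directions in contrasts of the same kind. None of these differences could be tested with 1 library per group. The median of the 9 steroid synthesis genes was -0.36 in doxorubicin over control and 0.27 in doxorubicin+AMH over AMH. Kcnd2, a potassium channel gene, had log2 ratios of -0.84 in AMH over control and 0.62 in doxorubicin+AMH over doxorubicin, and 5 cells held 45.5% to 63.4% of its UMIs in each library. Rgs6, a regulator of G proteins, had -0.78 in doxorubicin over control and 0.65 in doxorubicin+AMH over AMH, and 5 cells held 30.9% to 52.4% of its UMIs in each library. It was at 138, 71.2, 120.4 and 67.2 CPM in theca-like cells and 8.87, 8.32, 17.9 and 14.5 CPM in the others, where the ratios were -0.06 and 0.23. Hspa1b, a heat shock protein, had 0.51 in doxorubicin over control and -1.86 in doxorubicin+AMH over AMH, with 53.7, 78.4, 56.7 and 219 CPM in Enpep Lamc3 cells and 63.4, 64.7, 37.1 and 220.0 CPM in leukocytes, so the AMH library was high in both.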

How the results depend on the processing

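No paired analysis was possible because each group had 1 library. Of 1756 values recomputed under alternatives, 17 changed direction. In a further 25, for 11 pairs of ratios of a gene, the pair no longer shared a direction. The median of p53 targets kept its direction in all 12 alternatives (0.66 to 0.83 in doxorubicin over control, 0.20 to 0.39 in doxorubicin+AMH over AMH). Leaving out theca-like clusters or cells with Clec3b, Dpt and Igfbp3 genes was chosen after seeing the data. The cause of the changes below was not tested.

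Shares of Enpep Lamc3 cells (control, doxorubicin, doxorubicin+AMH, AMH) were 5.205%, 6.40%, 5.04% and 3.41% with at least 3 of the 4 genes and 8.59%, 9.77%, 7.63% and 5.76% without theca-like clusters. With cells thinned to 5000 UMIs and shallower cells left out of both the set and the total, they moved to 9.29%, 8.37% and 6.49% in the last 3 libraries, and with cluster 4 in place of the rule to 9.74%, 8.57% and 5.95%. Cells with at least 3 rather than 5 UMIs of the S genes alone, or of the G2 and M genes alone, were 38.5%, 41.5%, 43.9% and 39.1%.

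Counts of genes past 0.5 moved most without a filter on low levels, to 107 higher and 144 lower in doxorubicin over control, 74 and 253 in doxorubicin+AMH over AMH, 255 and 244 in AMH over control, and 150 and 253 in doxorubicin+AMH over doxorubicin. After thinning, doxorubicin over control had 24 higher, AMH over control 41 higher and doxorubicin+AMH over doxorubicin 55 lower. With at least 3 rule genes, doxorubicin+AMH over AMH had 72 higher and doxorubicin+AMH over doxorubicin 102 higher. With cluster 4, doxorubicin over control had 23 higher and 28 lower, and doxorubicin+AMH over AMH 18 lower. With cells weighted equally, doxorubicin over control had 26 lower and doxorubicin+AMH over doxorubicin 36 higher.

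Of the values that changed direction, the steroid synthesis median in doxorubicin over control became 0.018 with at least 3 rule genes, 0.049 without theca-like clusters and 0.0500 with cells weighted equally. In doxorubicin+AMH over AMH it became -0.029 after thinning and -0.10 without theca-like clusters, and in AMH over control 0.092 after thinning. The hedgehog median in doxorubicin+AMH over doxorubicin became 0.061 after thinning and 0.14 in cluster 4. Cluster 4 also gave 0.011 for BMP targets in doxorubicin+AMH over AMH, 7.7e-05 and 0.033 for G2 and M genes in AMH over control and doxorubicin+AMH over doxorubicin, -0.0895 for Hbb-bt and -0.15 for Serpinb6b by the ratio nearer 0, and -0.0078, -0.35 and 0.062 for the difference of both doxorubicin ratios of Kcnd2, Rgs6 and Ovgp1. With cells weighted equally, the ratio of Mctp1 nearer 0 was 0.012.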

Other observations

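Beyond the comparisons above, several hormone receptor genes were detected in Enpep Lamc3 cells. Esr1, an estrogen receptor, was at 118, 118, 112 and 124 CPM and Ghr, the growth hormone receptor, at 298, 271, 261 and 267 CPM. Of the 10 receptors that passed the filter, Prlr, at 272, 214, 172 and 163 CPM, was the 1 past 0.5 in AMH over control (2.12% of all genes were lower, log2 -0.72). Although Enpep encodes an angiotensin peptidase, the angiotensin receptor genes Agtr1a, Agtr1b and Agtr2 were each at most 1.61 CPM, and Agt, which encodes angiotensinogen, was at 66.5, 65.6, 64.2 and 67.9 CPM. Of 7 interferon response genes that passed, Isg15 was the 1 lower past 0.5 in AMH over control (log2 -0.66, beside 2.12% of all genes).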
